A study of Mus musculus with 17 samples.

Results

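The hippocampus of adult female offspring was compared between mothers that had been treated with rapamycin into old age and young mothers. The comparison used the 3 libraries labelled as offspring of rapamycin-treated aged mothers and the 4 labelled as offspring of young mothers, 7 of the 17 libraries in the series. All offspring were wild-type CD1 mice, an outbred strain, aged 40 to 44 weeks (about 10 months), and one hippocampus of each was kept frozen in RNAlater. Treated mothers had received rapamycin, an inhibitor of the mTOR kinase, by intraperitoneal injection at 2 mg/kg for 40 weeks from week 8. The offspring themselves are not described as treated. The age of either group of mothers at mating is not given in the sources used here. The study also holds 3 hippocampus libraries from offspring of untreated aged mothers, which are set beside the comparison, and oocyte libraries that were not used here. Treated and young mothers differ both in age and in treatment, so in this comparison age and rapamycin cannot be told apart. Below, young, aged and rapamycin libraries stand for offspring of the respective mothers.

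Immediate early genes are transcribed within minutes of neuronal firing or growth factor signals by regulators already present in the cell, such as CREB and serum response factor, and need no newly made protein. One set of them encodes transcription factors of the FOS, JUN, EGR and NR4A families. The other encodes proteins that act directly in the cell, among them kinases, phosphatases and synaptic proteins, and in the hippocampus both sets are widely used to mark recently active neurons. mTOR complex 1 promotes ribosome and protein synthesis and holds back autophagy.

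Reads assigned to genes came to between 16434398 and 19462301 per library, and 14322 to 14741 genes had at least 10 counts. Levels are counts scaled to library size (CPM, with TMM scaling factors). They are not divided by gene length, so they are compared between libraries and not between genes. The hippocampal markers Prox1 (dentate granule cells), Wfs1 (CA1) and Grik4 (CA3) were detected in every library. Prox1 lay between 41.5 and 90.3 CPM in young and between 48.1 and 72.1 CPM in rapamycin libraries. Xist was expressed in all libraries and no more than 1 count of any tested Y-linked gene was found, matching the female label. The libraries young 2 and rapamycin 2 stood apart from the rest and carry the same library number. Their summed endothelial marker level was 169.9 and 186.1 CPM, against 352 to 373.6 CPM in the other young and 400 and 412.8 CPM in the other rapamycin libraries. Their oligodendrocyte and myelin markers summed to 11430 and 11360 CPM, against 3842 to 4826 and 3357 to 5733 CPM. Ribosomal protein genes summed to 32300 and 31670 CPM there, against 13900 to 18820 and 10860 to 14860 CPM in the others. Non-unique reads made up 7.22% and 7.05% there, against 5.09% to 6.3% in the other young and rapamycin libraries. These differences lay within the groups. In bulk tissue, fewer cells of a type and less RNA per cell cannot be told apart. A difference in tissue content and a technical difference between libraries cannot be told apart either.

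In the rapamycin libraries 8 genes were higher than in the young ones, and all 8 belong to the immediate early genes. They were the transcription factors Egr2, Fos, Ier2 and Fosb and the effectors Cyr61, Dusp1, Btg2 and Sik1. The rise ranged from 2.67-fold for Sik1 to 10.9-fold for Egr2, and for each of them every rapamycin library lay above every young library. No gene fell. This was 8 of 14877 genes tested (0.0538%) with edgeR's quasi-likelihood test at an adjusted p under 0.05; at an unadjusted p under 0.05 there were 540 genes (3.63%), 341 higher (2.29%) and 199 lower (1.34%). DESeq2 called 36 genes (0.242%), 27 higher and 9 lower, and all 8 were among them. The count rested on single libraries. It was 2 without young 1 and 4 without young 3, of which 3 were higher and Mocs2 was lower. The count was 5 without aged 1, which enters only through the shared estimate of spread. It was 3 without rapamycin 1 and 5 without rapamycin 3. Fos and Btg2 were called under all 20 alternatives. With young 2 and rapamycin 2 both left out 9 genes were called, 7 of the 8 plus Klf2 and Apold1. The deviations from group means of same-numbered rapamycin and young libraries correlated at 0.181, 0.635 and 0.318. Rapamycin 1 correlated more with young 3 (0.518), and the labels do not say what a number marks. The deposited files carry a second numbering that partly differs from these library numbers. With the number as a block 4 genes were called, Egr2, Fos, Btg2 and Npas4.

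**Figure D1:**
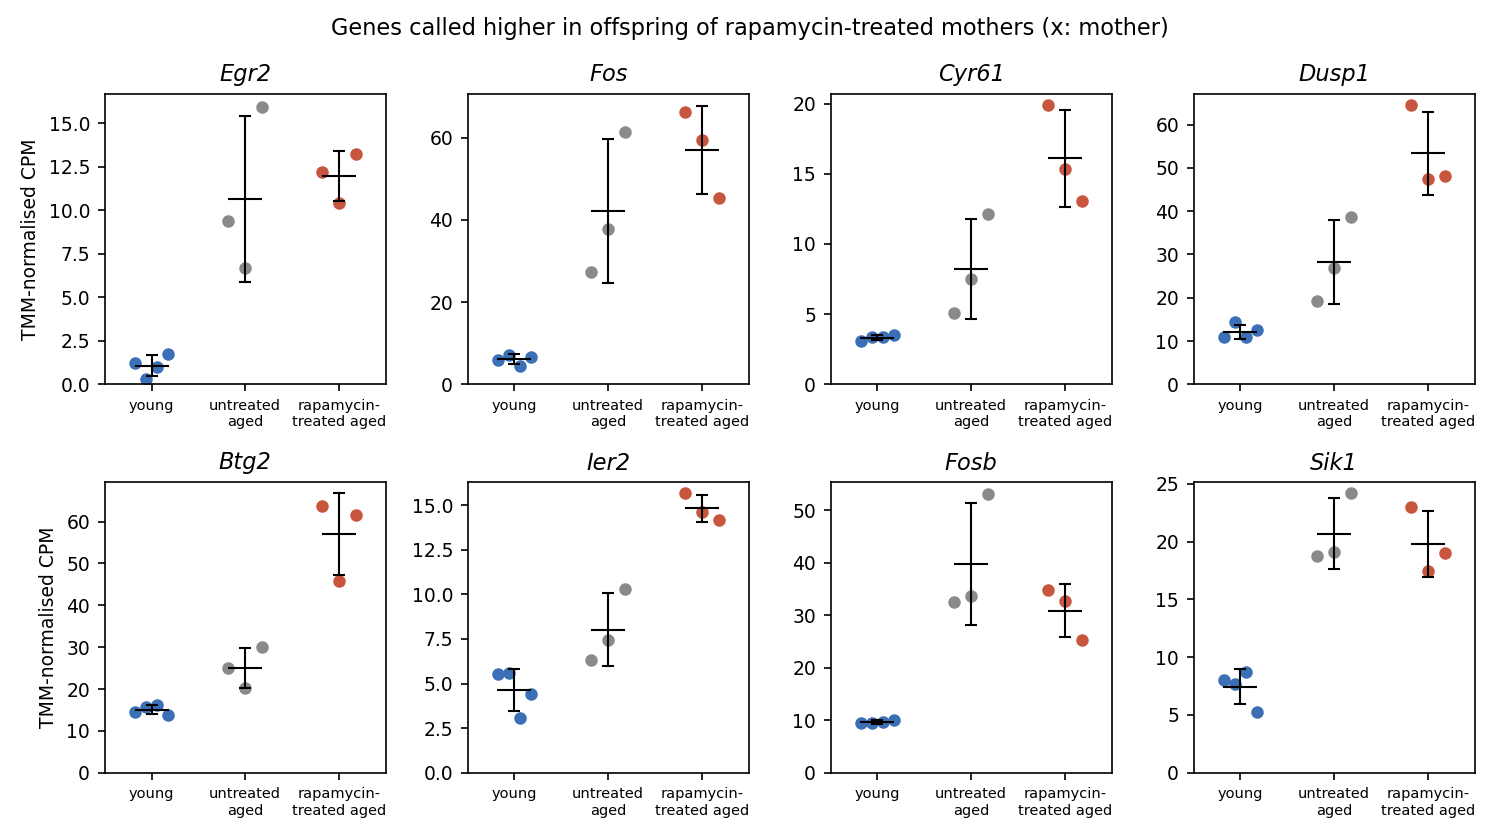
TMM-normalised CPM (y axis, linear, from 0) of the 8 called genes by mother (x axis), with 1 point per library, the mean as a horizontal line and the SD as a bar. In every panel the 3 rapamycin points lie above the 4 young points, and the 3 untreated aged points lie above the young ones, overlapping the rapamycin points for Egr2, Fos, Fosb and Sik1.

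The promoters of 6 of the 8 genes were found in the RefSeq table (GRCm38.p6), those of Ier2 and Sik1 not. The 250 bases before the transcription start are shown for 4 of them, because Fos and Btg2 gave the firmest differences, Dusp1 shares a motif with Btg2, and Egr2 rose most. Capitals mark the cAMP response element TGACGTCA, to which CREB binds, its core TGACG on either strand, and the TATA box TATAAA. The Fos promoter lies at chr12:85473640-85473889 on the plus strand, that of Btg2 at chr1:134079156-134079405 on the minus strand, that of Dusp1 at chr17:26508473-26508722 on the minus strand and that of Egr2 at chr10:67535249-67535498 on the plus strand.
Fos: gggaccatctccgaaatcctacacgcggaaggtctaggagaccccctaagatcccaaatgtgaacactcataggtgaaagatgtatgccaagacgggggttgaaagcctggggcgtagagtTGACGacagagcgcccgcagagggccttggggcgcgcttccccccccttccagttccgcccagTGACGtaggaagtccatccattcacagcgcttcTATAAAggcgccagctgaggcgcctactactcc
Btg2: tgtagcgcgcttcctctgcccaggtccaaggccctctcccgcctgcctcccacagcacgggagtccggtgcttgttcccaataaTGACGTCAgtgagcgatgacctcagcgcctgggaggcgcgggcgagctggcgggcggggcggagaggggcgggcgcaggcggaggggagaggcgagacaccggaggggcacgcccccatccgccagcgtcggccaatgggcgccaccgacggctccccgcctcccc
Dusp1: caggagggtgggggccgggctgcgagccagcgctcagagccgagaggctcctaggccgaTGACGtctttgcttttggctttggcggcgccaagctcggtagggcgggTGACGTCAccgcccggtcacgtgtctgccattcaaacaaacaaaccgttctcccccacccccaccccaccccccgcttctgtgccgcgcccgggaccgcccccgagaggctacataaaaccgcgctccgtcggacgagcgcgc
Egr2: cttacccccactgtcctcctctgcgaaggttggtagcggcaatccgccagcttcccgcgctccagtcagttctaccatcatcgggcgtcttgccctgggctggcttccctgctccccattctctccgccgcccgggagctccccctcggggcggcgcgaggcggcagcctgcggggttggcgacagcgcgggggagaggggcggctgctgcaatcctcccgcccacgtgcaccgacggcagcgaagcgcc
Full elements stood 166 to 159 bases before the start in Btg2 and 143 to 136 bases before it in Dusp1. Fos held the core 129 to 125 and 66 to 62 bases before the start and a TATA box 33 to 28 bases before it. These letters were not in the Egr2 window. The core was present in 5 of the 6 called promoters (83.3%), the remaining 2 being Fosb and Cyr61, in 21 of the 33 promoters found for both early gene lists (63.6%), in 26.3% of the promoters of genes tested and in 17.8% of all 32851 promoters of the table. The full element, which contains the core on both strands, was in 2 of the 6 (33.3%), in 12.1% of the early gene lists, in 2.78% of genes tested and in 1.55% of all promoters. No called promoter held the AP-1 site TGAGTCA, present in 3.02% of promoters of genes tested, or the CArG box of serum response factor, present in 1.18%. The EGR site GCGGGGGCG was in 1 of the 6, Fosb (16.7%), in 12.1% of the early gene lists and in 4.83% of genes tested. The TATA box was in 2 of the 6 (33.3%), in 18.2% of the early gene lists and in 6.35% of genes tested. A match describes letters in this window only.

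Among the transcription factors, Fos, a subunit of the AP-1 factor (chromosome 12, 85473890 to 85477273, plus strand, GRCm38), was at 5.99, 7.24, 4.53 and 6.61 CPM in young libraries 1 to 4. In rapamycin libraries 1 to 3 it was at 66.2, 59.4 and 45.3 CPM. The lowest rapamycin library was thus far above the highest young one, and the log2 fold change was 3.23 ± 0.28 (SE; edgeR adjusted p = 0.00154). Egr2, a zinc finger factor of the EGR family, was scarce in the young libraries. It had 1.23, 0.309, 1.01 and 1.76 CPM there, from 21, 5, 20 and 34 counts, against 12.2, 10.4 and 13.2 CPM in the rapamycin libraries. The log2 fold change of Egr2 was 3.45 ± 0.43 (SE; edgeR adjusted p = 0.0179). Its rapamycin libraries lay close together, and its young value in library 2 was the lowest of all. Fosb, another AP-1 subunit, had 9.39, 9.47, 9.76 and 10.1 CPM in young and 34.8, 32.7 and 25.2 CPM in rapamycin libraries, a log2 fold change of 1.67 ± 0.19 (SE; edgeR adjusted p = 0.0114). The young libraries of Fosb hardly varied. Ier2, a nuclear immediate early protein, had 5.52, 5.57, 3.07 and 4.44 CPM in young and 15.7, 14.6 and 14.2 CPM in rapamycin libraries, with a log2 fold change of 1.68 ± 0.23 (SE; edgeR adjusted p = 0.0370). With the replicate block the adjusted p of edgeR became 0.0756 for Fosb and 0.24 for Ier2, while Fos (0.0172) and Egr2 (0.00668) stayed under the threshold.

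The 4 effectors that rose act in different parts of the cell. Btg2, an antiproliferative protein that binds the CCR4-NOT deadenylase (chromosome 1, 134075170 to 134079120, minus strand), was at 14.5, 15.7, 16.1 and 13.8 CPM in young and at 63.7, 45.7 and 61.6 CPM in rapamycin libraries. Its log2 fold change of 1.92 ± 0.16 had the smallest adjusted p together with Fos (edgeR, 0.00154). Dusp1, a phosphatase that inactivates MAP kinases, was at 10.9, 14.4, 10.96 and 12.5 CPM in young and at 64.5, 47.6 and 48.0 CPM in rapamycin libraries. All rapamycin values of Dusp1 exceeded the young maximum by far, and the log2 fold change was 2.13 ± 0.23 (SE; edgeR adjusted p = 0.00831). Cyr61, a secreted matricellular protein now named Ccn1, had 3.05, 3.34, 3.37 and 3.51 CPM in young and 19.9, 15.4 and 13.1 CPM in rapamycin libraries, a log2 fold change of 2.28 ± 0.27 (SE; edgeR adjusted p = 0.0153). Sik1, a kinase that restrains CREB coactivators, had 8.04, 7.67, 8.75 and 5.27 CPM in young and 22.98, 17.4 and 19.01 CPM in rapamycin libraries, a log2 fold change of 1.41 ± 0.19 (SE; edgeR adjusted p = 0.0356). The groups did not overlap for either gene. With the block the adjusted p of edgeR was 0.00668 for Btg2, 0.0586 for Dusp1, 0.0936 for Cyr61 and 0.0756 for Sik1.

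All 42 members of the pair of early gene lists passed the filter on low counts. Among 19 transcription factors 4 were called, 18 had a log2 fold change above 0 and the median was 1.05, against 0.007 over all genes tested. Among 23 effectors 4 were called, 16 were above 0 and the median was 0.19. The libraries did not overlap, with rapamycin higher, in 19 of the 42 members (45.2%), against 2.93% of all genes tested. With rapamycin lower they did not overlap in 1 member, against 2.1%. All called genes are among the 19 members. The gene lists used here were also chosen with earlier results of these data known. Shares of a list set against all genes are therefore descriptive and not an independent test. The summed level of the transcription factors was 824.8 to 995.4 CPM in young and 1391 to 1528 CPM in rapamycin libraries, and that of the effectors 779.3 to 1030 and 1162 to 1203 CPM. Both sums separated the young from the rapamycin libraries completely, including young 2 and rapamycin 2. The aged libraries also lay above all young ones. Their sums were 1428, 1388 and 1902 CPM for the transcription factors and 1291, 1091 and 1466 CPM for the effectors. The median log2 fold change, aged minus young, was 1.06 for the transcription factors and 0.54 for the effectors.

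Among members that did not pass the test, Arc lay nearest to the threshold. Arc, which controls AMPA receptor uptake at synapses, was at 90.0, 101, 80.0 and 133 CPM in young and at 232, 321 and 280 CPM in rapamycin libraries, with a log2 fold change of 1.46 ± 0.21 (SE; edgeR adjusted p = 0.0509). The lowest rapamycin value of Arc was well above the highest young one. Npas4, a neuronal transcription factor induced by calcium entry, varied more among young libraries, at 3.46, 1.92, 5.38 and 11.3 CPM, against 36.3, 23.3 and 37.4 CPM in rapamycin libraries. Its log2 fold change was 2.54 ± 0.48 (SE; edgeR adjusted p = 0.264), and with the replicate block 3.24 (edgeR adjusted p = 0.00513). Egr1, at 103, 74.8, 75.6 and 131 CPM in young and 187, 206 and 204 CPM in rapamycin libraries, had a log2 fold change of 1.05 ± 0.23 (SE; edgeR adjusted p = 0.630). The groups did not overlap in any of the 3 genes. Nr4a1 (1.14), Junb (1.15) and Egr4 (1.05) had similar log2 fold changes, and DESeq2 called these 3 as well as Arc, Npas4 and Egr1. The aged libraries were also above all young ones for Arc (271, 259 and 404 CPM), Npas4 (12.0, 12.8 and 23.6 CPM) and Egr1 (216, 173 and 308 CPM). Klf4 (1.26), Atf3 (0.98), Nr4a2 (0.63), Gadd45b (0.62) and Jun (0.43) were without overlap between the young and rapamycin libraries and did not pass the test. Inhba, a subunit of activin, had the largest negative value of the lists (-0.86 ± 0.42 SE), and Arl4d (0.70 ± 0.30) and the secreted synaptic protein Nptx2 (-0.60 ± 0.35) also differed by over 0.5 log2 units, each with overlapping groups. For other members the log2 fold change was 0.26 for Egr3, 0.12 for Nr4a3, -0.22 for the neurotrophin Bdnf, -0.05 for Plk2 and -0.25 for the scaffold Homer1, the only member whose rapamycin libraries all lay below the young ones.

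**Figure D2:**
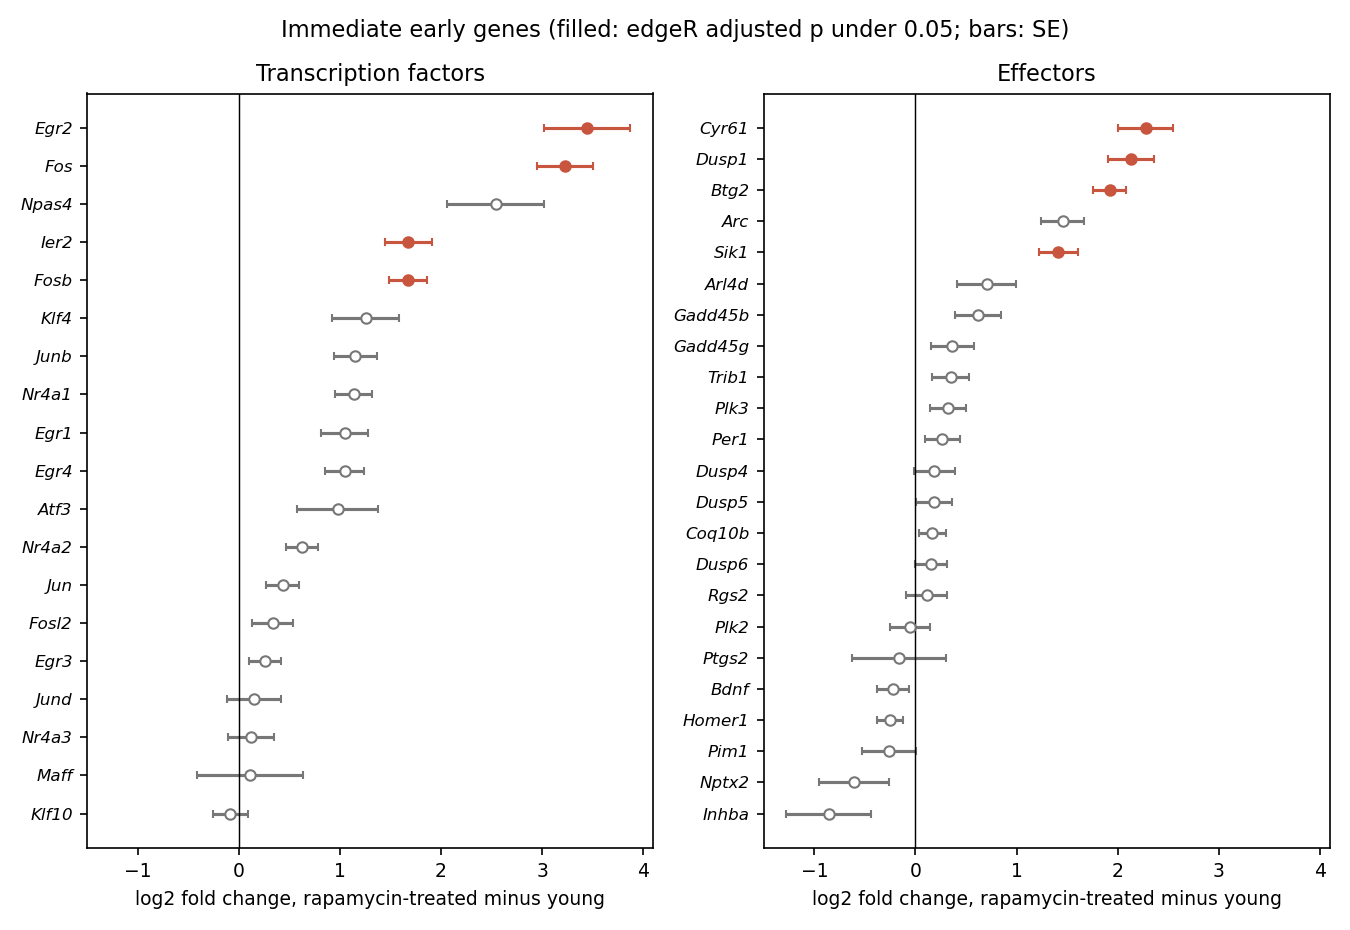
Log2 fold change (x axis, rapamycin minus young, edgeR) of the 19 early transcription factors and 23 early effectors (y axis), with SE bars; filled points have an adjusted p under 0.05. The transcription factors lie to the right of 0 except Klf10, and the effectors spread from Inhba at -0.86 to Cyr61 at 2.28.

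The 3 untreated aged libraries show where these levels stand. Both comparisons share the rapamycin libraries, so the values are set side by side. With edgeR 0 of 14877 genes (0%) were called between rapamycin and untreated aged libraries; 673 (4.52%) had an unadjusted p under 0.05, and DESeq2 called 13 (0.0874%), of which Btg2 alone was among the 8. Fos was at 27.4, 37.8 and 61.5 CPM in aged libraries 1 to 3 and Fosb at 32.5, 33.6 and 53.2 CPM, overlapping the rapamycin range. Egr2 (9.40, 6.65 and 15.9 CPM) and Sik1 (18.7, 19.1 and 24.2 CPM) overlapped it too. For Btg2, Dusp1, Cyr61 and Ier2 every rapamycin library was above every aged one, as was the case for 5.01% of all genes tested. Btg2 was at 24.9, 20.4 and 30.0 CPM in aged libraries, and its log2 difference, rapamycin minus aged, was 1.18 ± 0.18 (SE; edgeR adjusted p = 0.531, DESeq2 adjusted p = 1.39e-05). That difference was 0.92 ± 0.24 for Dusp1, 0.97 ± 0.28 for Cyr61 and 0.88 ± 0.25 for Ier2 (edgeR adjusted p = 0.796 for each). It was 0.43 ± 0.28 for Fos, 0.16 ± 0.41 for Egr2, -0.06 ± 0.20 for Sik1 and -0.36 ± 0.20 for Fosb. Of the 42 early genes, 4 did not overlap with rapamycin higher and 8 with rapamycin lower (4.88% of all genes tested).

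The count of 0 against the aged libraries depended on young 2 and rapamycin 2. With both left out, a setting chosen after the data were seen, edgeR called 3139 of 15029 genes (20.9%) in the 2 remaining rapamycin libraries, 1482 higher (9.86%) and 1657 lower (11%), while leaving out either alone gave 0. Among them 73 of 76 ribosomal protein genes and 65 of 75 nuclear OXPHOS genes were lower, and 13 of 17 endothelial markers were higher. Of the 42 early genes 4 were called higher and 3 lower there, shares no higher than the 9.86% and 11% of all genes tested. Btg2 (1.31), Dusp1 (0.98), Cyr61 (0.99) and Ier2 (0.88) were higher on the log2 scale, and Coq10b (-0.57), Gadd45g (-0.66) and Rgs2 (-0.55) lower. The median log2 difference in that setting was -0.26 for the early transcription factors and -0.27 for the effectors. The aged libraries resembled rapamycin 2 in the endothelial sum, with 182 to 205.6 CPM. The part of such differences between libraries, in tissue content or technical, in the contrast with aged libraries was not tested.

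**Figure D3:**
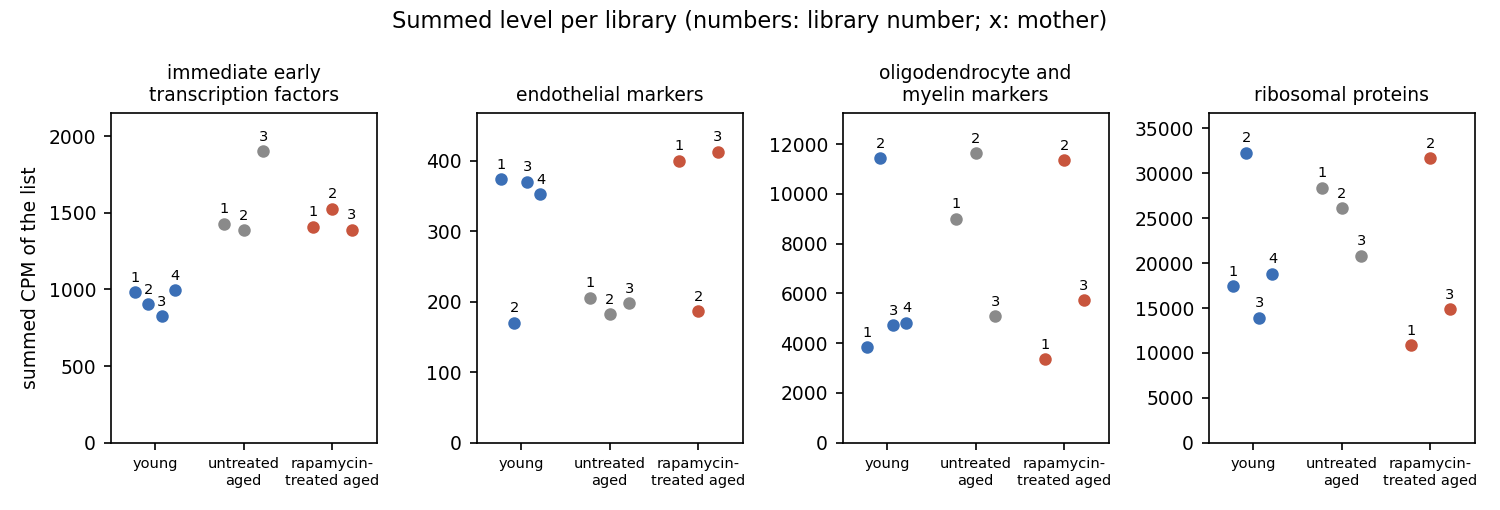
Summed CPM (y axes, linear, from 0) of 4 gene lists in each of the 10 hippocampus libraries, by mother (x axis), with the library number above each point. The early transcription factors separate the young from the rapamycin libraries, whereas endothelial, oligodendrocyte and ribosomal protein sums set young 2 and rapamycin 2 apart within their groups.

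Some genes outside the naming rule were chosen after their values were seen, because DESeq2 called them. Klf2 and Apold1, a transcription factor and an early response gene of endothelial cells, are given with the library's endothelial level in view. Klf2 was at 3.99, 3.53, 4.22 and 4.55 CPM in young and at 13.04, 7.66 and 15.6 CPM in rapamycin libraries (log2 fold change 1.57 ± 0.23 SE, edgeR adjusted p = 0.0509). Apold1 was at 2.41, 2.04, 2.21 and 2.07 CPM in young and at 18.8, 4.61 and 14.3 CPM in rapamycin libraries (log2 fold change 2.53 ± 0.43 SE, edgeR adjusted p = 0.127). For both genes rapamycin 2, which had the low endothelial sum, was the lowest of the rapamycin libraries and lay above all young ones. Young 2, which also had a low sum, was the lowest young library for both genes, though close to the next. The part of endothelial RNA in these differences was not tested. The endothelial list as a whole had 0 calls, 10 of 17 members above 0 and a median of 0.08. Zfp36, which encodes a protein that destabilises AU-rich mRNAs, had 3.82, 3.71, 3.77 and 3.46 CPM in young and 11.3, 7.22 and 6.94 CPM in rapamycin libraries (log2 fold change 1.20 ± 0.20 SE, edgeR adjusted p = 0.127). Its aged libraries, at 3.95, 3.38 and 3.57 CPM, were at the young level, and DESeq2 called it against both groups.

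No gene passed the test on the lower side. Among lower genes whose mean log2 CPM was 1 or more and whose groups did not overlap, the 10 with the smallest unadjusted p were Hcrtr2, Gbp7, Tmem68, Igtp, Asb11, Arxes2, Tmem169, Rab27b, Krt73 and Med10, with log2 fold changes between -1.62 and -0.45. Hcrtr2, the type 2 orexin receptor, was at 4.40, 3.90, 3.77 and 3.77 CPM in young and at 2.03, 2.05 and 2.33 CPM in rapamycin libraries (log2 fold change -0.89 ± 0.20 SE, edgeR adjusted p = 0.634). The interferon-induced GTPase Gbp7 was at 8.98, 6.44, 11.3 and 11.6 CPM in young and at 3.55, 2.80 and 5.83 CPM in rapamycin libraries (log2 fold change -1.24 ± 0.29 SE, edgeR adjusted p = 0.745). Igtp, of a related GTPase family, had 3.05, 3.84, 5.33 and 5.53 CPM against 1.02, 1.87 and 1.81 CPM (log2 fold change -1.51 ± 0.36 SE, edgeR adjusted p = 0.756). Tgtp2, another interferon-induced GTPase, lay under that level and its groups overlapped; its log2 fold change was -3.28 ± 0.77 (SE; edgeR adjusted p = 0.756).

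The interferon and antigen presentation list gave 0 calls. A log2 fold change under 0 was found for 22 of its 26 tested members, and its median of -0.62 was the lowest among lists with at least 8 tested members. In 6 members all rapamycin libraries lay below all young ones, as did 2.1% of all genes tested. The summed level was 259.6 to 297.6 CPM in young and 193.5 to 223.6 CPM in rapamycin libraries, and the aged libraries, at 194.6 to 246.2 CPM, overlapped the rapamycin range. Isg15, a ubiquitin-like interferon product, had a log2 fold change of -1.24 ± 0.42 (SE), Gbp3 of -0.96 ± 0.33 and the antiviral membrane protein Ifitm3 of -1.11 ± 0.39, each with an edgeR adjusted p of 0.999. Members of this list are expressed at low levels, with Isg15 between 0.525 and 2.43 CPM in the 7 libraries.

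Transcripts of the pathway that the mothers' treatment targets were examined in the offspring. Transcript levels do not measure the activity of the mTOR kinase. Of 47 tested genes of the mTOR pathway none was called, 28 were above 0 and the median log2 fold change was 0.06. The kinase gene Mtor was at 116, 69.9, 123 and 104 CPM in young and at 137, 86.7 and 122 CPM in rapamycin libraries (0.16 ± 0.22 on the log2 scale, SE). The log2 fold change was 0.05 ± 0.15 for Rptor, which encodes the scaffold of complex 1, and 0.06 ± 0.17 for its substrate Rps6kb1. For Eif4ebp1, a translational repressor, it was -0.54 ± 0.54. The edgeR adjusted p was 0.999 for these 4 genes. The members with the smallest unadjusted p were Sesn3, a stress sensor upstream of mTOR (0.78 ± 0.25), Eif4ebp2 (0.68 ± 0.24) and Flcn (0.25 ± 0.10), and none passed the threshold.

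Among the processes that mTOR governs, 44 autophagy and lysosome genes had a median of -0.02 and 0 calls. The ribosomal protein list gave 0 calls, 71 negative log2 fold changes among 76 genes and a median of -0.10. Nuclear OXPHOS genes gave 0 calls, 71 negative values among 75 and a median of -0.21. Within each group these levels varied more than between them, from 13900 to 32300 CPM in young and from 10860 to 31670 CPM in rapamycin libraries for the ribosomal protein sum. For cholesterol and fatty acid synthesis, 23 of 24 genes had a positive log2 fold change (median 0.17), with 0 calls. Their sum was 3155 to 3607 CPM in young and 3793 to 4618 CPM in rapamycin libraries, without overlap. Scd2, a fatty acid desaturase, had a log2 fold change of 0.34 ± 0.13 (SE), Lss, the lanosterol synthase, of 0.35 ± 0.15 and Idi1 of the mevalonate pathway of 0.34 ± 0.19. For the cholesterol transporter Npc1 of the lysosome it was 0.38 ± 0.15 and for Ulk1, the kinase that starts autophagy, 0.29 ± 0.13. The edgeR adjusted p of these 5 genes was 0.999.

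**Figure D4:**
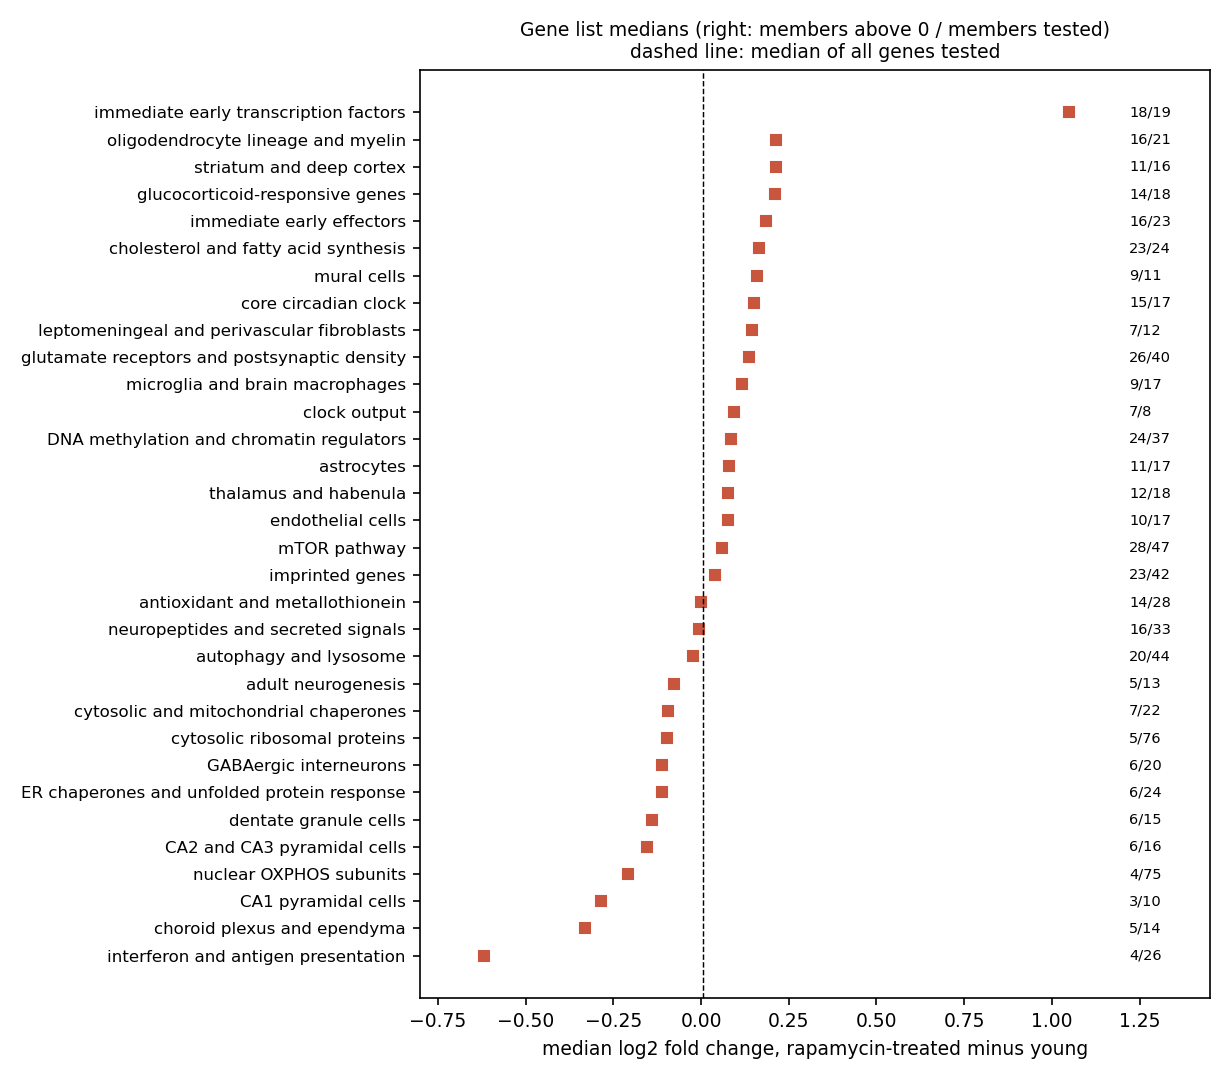
Median log2 fold change (x axis, rapamycin minus young) of each gene list with at least 8 tested members (y axis), with the number of members above 0 of those tested at the right and the median of all genes tested as a dashed line. The early transcription factors stand at 1.05, the interferon list at -0.62, and all other lists lie between -0.33 and 0.21.

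Genes of neurons and glia gave no calls. Granule cell markers of the dentate gyrus had a median log2 fold change of -0.14 over 15 genes, CA1 markers of -0.29 over 10, CA2 and CA3 markers of -0.16 over 16 and GABAergic interneuron markers of -0.11 over 20. Glutamate receptor and postsynaptic density genes gave positive values in 26 of 40 cases (median 0.14). Of the oligodendrocyte lineage list, 16 of 21 members were above 0 and the median was 0.21. Gpr17, a receptor of committed oligodendrocyte precursors, had the smallest unadjusted p there. It was at 27.6, 23.5, 23.1 and 28.5 CPM in young, 26.5, 28.8 and 30.4 CPM in aged and 57.6, 41.9 and 41.3 CPM in rapamycin libraries. All rapamycin libraries thus lay above the other 7, also rapamycin 1, whose summed oligodendrocyte level was the lowest of all. The log2 fold change of Gpr17 against young was 0.87 ± 0.15 (SE; edgeR adjusted p = 0.127, DESeq2 adjusted p = 0.000193).

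On the neuronal lists, the log2 fold change was -0.55 ± 0.18 (SE) for Vip, a peptide of interneurons, -0.28 ± 0.10 for Lamp5, -0.51 ± 0.22 for Calb1, the calbindin of granule cells, and -0.49 ± 0.16 for Rgs14, a marker of CA2. Vip was at 26.9, 39.4, 29.0 and 37.7 CPM in young and at 23.6, 25.4 and 18.95 CPM in rapamycin libraries, without overlap. None of these passed the edgeR test (adjusted p = 0.999 for each). The adult neurogenesis list had a median of -0.08 over 13 genes, and its member Sox4 had a log2 fold change of 0.45 ± 0.14. Medians were 0.08 for 17 astrocyte genes, 0.12 for 17 microglia and brain macrophage genes, 0.16 for 11 mural cell genes and 0.15 for 12 fibroblast genes of the leptomeninges and vessels. Genes of neighbouring tissue had medians of 0.08 (thalamus and habenula, 18 genes), 0.21 (striatum and deep cortex, 16 genes) and -0.33 (choroid plexus and ependyma, 14 genes). Of the 4 hemoglobin genes on the blood list none had a count in any library. The ribosomal protein gene Rpl26 and the OXPHOS gene Ndufs5 also had no count in any library. The hemoglobin zeros therefore do not show that blood was absent. Alas2, also on the blood list, was detected in every library, at 0.866 to 4.06 CPM. The remaining lists also gave 0 calls. Their medians were -0.10 for 22 cytosolic and mitochondrial chaperones, -0.11 for 24 chaperones and stress genes of the endoplasmic reticulum, 0 for 28 antioxidant and metallothionein genes, 0.09 for 37 chromatin and DNA methylation regulators, 0.04 for 42 imprinted genes, -0.01 for 33 neuropeptides and 0.27 for 3 tested hypothalamic and pituitary genes. Calr, an endoplasmic reticulum chaperone, had a log2 fold change of -0.34 ± 0.13 and Dnajb1, a cytosolic co-chaperone, of 0.43 ± 0.16.

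Glucocorticoid-responsive and circadian genes were set beside the early genes. Of 18 glucocorticoid-responsive genes 14 had a positive log2 fold change (median 0.21), and their sums overlapped, at 922 to 1588 CPM in young and 1004 to 1140 CPM in rapamycin libraries. Tsc22d3 was at 34.6, 61.5, 44.0 and 57.9 CPM in young and at 86.2, 95.9 and 66.4 CPM in rapamycin libraries (log2 fold change 0.74 ± 0.22 SE, edgeR adjusted p = 0.999). Tsc22d3 was higher still in the aged libraries, at 151, 160 and 107 CPM. In 8 of the 18 genes every rapamycin library lay below every aged one, against 4.88% of all genes tested. Of 17 core clock genes 15 had a positive log2 fold change (median 0.15). The clock output list summed to 693.4 to 748.4 CPM in young and 823.4 to 974.4 CPM in rapamycin libraries, without overlap. The aged libraries, at 830, 858.3 and 903.3 CPM, also lay above all young ones and within the rapamycin range. The clock output member Dbp had a log2 fold change of 0.58 ± 0.24 against young (SE, edgeR adjusted p = 0.999). No member of these lists was called, and their part in the early gene result was not tested.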

How the data were processed

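Libraries were made from poly-A RNA of the hippocampus with a kit that does not mark strand and sequenced as pairs on an Illumina instrument, per the labels' protocols. The deposited files hold counts of reads per gene, not normalized. Per the submitters' processing notes, STAR, HTSeq and the mm10 build were used. Their versions, the annotation and the strand setting were not given in the sources used here. Overlapping and antisense genes therefore cannot be separated. Files listed 24491 genes; 5 summary rows were left out of library sizes and tests. As shares of each library's total, reads in no gene made up 12.4% to 16.0%, non-unique reads 5.09% to 7.22% and ambiguous reads 1.66% to 1.92% in the 7 libraries.

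All 10 hippocampus libraries were fitted together, which gives the groups a common estimate of spread. After filterByExpr (14877 genes kept) and scaling with TMM factors (trimmed mean of M values), genes were tested with edgeR's quasi-likelihood F-test and adjusted by Benjamini-Hochberg over all genes tested, with a threshold of 0.05. The biological coefficient of variation was 23.5%. A floor of 3 counts was 0.151 to 0.187 CPM and covers counting error only, since reads are not independent molecules. SE stands for the standard error of a log2 fold change. The code was tested on simulated data. Symbols were matched to GENCODE M21 on GRCm38, the assembly of mm10, for positions, and to RefSeq on GRCm38.p6 for promoters (33 of 42 early genes). Tools were edgeR 4.0.16 and DESeq2 1.42.0 in R 4.3.3, with limma 3.58.1, and figures were drawn with matplotlib 3.10.9 in Python 3.11.15.

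The comparison, the 35 gene lists and the naming rule were chosen with earlier results of these data known. The rule takes, among called genes of at least 1 mean log2 CPM whose libraries do not overlap, the 12 largest rises and 12 largest falls; where fewer than 5 pass, the 10 of smallest unadjusted p. It adds up to 3 members per list by unadjusted p, and Mtor, Rptor, Rps6kb1, Eif4ebp1, Fos, Arc and Egr1. Other members are given by role. Not every gene taken by the rule is reported here. Alternatives were relative log expression factors, no filter, a filter of 10 CPM in 3 libraries, robust dispersions, a fit of the 2 groups alone, the library number as a replicate block, DESeq2, thinning to the smallest total, the ribosomal protein level as a covariate and leaving out each library; leaving out young 2 and rapamycin 2 together was added after the data were seen. All pairs of replicates differed beyond counting noise (chi-square per degree of freedom of 12.8 or more). Nothing in the labels states that each library is a separate animal; p-values therefore reflect only how these libraries scatter, and that scatter may be technical.

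Library numbers in the labels are shared between groups. The deviations from the group means of same-numbered rapamycin and young libraries correlated across genes at 0.181, 0.635 and 0.318. The numbers were therefore used as a block in an alternative fit, and not in the main fit. Because the deposited files carry a second, partly different numbering, the block may join unrelated libraries. This pairing comes from these data. The labels do not say what a number marks, and rapamycin 1 correlated more with young 3 (0.518). With aged libraries, which the block also covered, the same-number correlations were -0.085, 0.195 and -0.052.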

Additional observations from a re-analysis of the deposited data

Results flagged for a closer look

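Values of the 4 young libraries were checked for one library far from the other 3, and chance marks about 1 in 20 such groups. Of 25 genes and 35 list sums checked, 6 were marked. In young 2 the summed endothelial markers were low (169.9 CPM) and the sums of oligodendrocyte and myelin (11430 CPM) and of choroid plexus and ependyma markers (284.8 CPM) were high. The same library had the lowest Rps6kb1 (48.89 CPM, against 56.1 to 56.7 CPM in the others). Young 1 held prolactin transcripts, with Prl at 347.8 CPM from 5925 counts, against at most 0.155 CPM in the other young libraries and at most 0.996 CPM in the rapamycin ones. Its sum of hypothalamic and pituitary markers was accordingly high, at 352.5 CPM, and Gh reached 1.76 CPM there. Without young 1 the genes called against young mothers numbered 2, Fos and Btg2. The part of these transcripts in that count was not tested.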

How the results depend on the processing

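Against young mothers, 8 genes were called. Size factors by relative log expression (8), testing of all genes (10), a minimum of 10 CPM (9), thinning (7), robust dispersions (8) and leaving out both young 2 and rapamycin 2 (9) stayed within 1.5 times that count. Only the 2 groups compared gave 5, the replicate block 4, the ribosomal protein covariate 16 (15 higher, with all 8 among them, and Ly6a lower) and DESeq2 36. Leaving out 1 library in turn gave 2 to 10, with Tgtp2 called lower without young 2 and Mocs2 called lower without young 3. Against untreated aged mothers, 0 genes were called, with 2 for only the 2 groups, 13 for DESeq2, 3139 with young 2 and rapamycin 2 left out, and 0 to 1 on leaving out 1 library. The cause of these moves was not tested. All 8 called genes kept their direction under all 20 alternatives. Fewer alternatives called Ier2 (7), Sik1 (10), Egr2 (14), Cyr61 (15), Fosb (16) and Dusp1 (18). The fit of only the 2 groups did not call Egr2, Ier2 and Sik1. Under the replicate block the log2 fold change of Npas4 (3.24) became called, 5 calls named in the report were lost, and no other gene named there changed its call.

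Small differences changed sign. The block gave -0.08 for Avp, the covariate -0.005 for Rptor, -0.032 for Rps6kb1 and -0.156 for Xist, and leaving out young 2 and rapamycin 2 together -0.014 for Opalin and -0.104 for Pomc. On leaving out 1 library, Rptor ranged from -0.04 to 0.147, Rps6kb1 from -0.079 to 0.26, Xist from -0.083 to 0.644, Opalin from -0.141 to 0.874, Pomc from -0.318 to 0.644, Avp from -1.049 to 0.705, Nkx2-1 from -0.389 to 0.825, Ccdc153 from -2.501 to 0.6 and Rpl7 from -0.719 to 0.013. Depth limits Egr2, with as few as 5 counts in a young library, and a difference that missed the threshold with 3 libraries against 4 is not shown to be absent.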

Other observations

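Lefty1, a secreted TGF-beta antagonist on the CA1 list, differed between individual libraries. It had 163 and 197 counts in young 3 and young 4 and 174 in aged 3, 1 and 0 in young 1 and young 2, and 0 in aged 1, aged 2 and all 3 rapamycin libraries. The groups overlapped, edgeR gave an adjusted p of 0.999, and DESeq2 called it. Pou4f1, a habenula marker, had 170 counts in aged 1 and at most 2 in any other library. Tgtp2, an interferon-induced GTPase, was at 2.41, 0.309, 2.51 and 3.82 CPM in young and at 0.152, 0.125 and 0.408 CPM in rapamycin libraries, and was called by edgeR only without young 2 among the alternatives that leave out 1 library.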
